A study of Mus musculus with 9 samples.

Results

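*Foxp1*, *Lrch3* and *Sox6* were among the frequent hits of a *piggyBac* transposon mutagenesis screen in mouse mammary cancer cells, and *Foxp4* is the closest paralog of *Foxp1* among the genes counted. These 4 genes were followed here, of 14108 genes counted in each of 9 mammary tumours. They were chosen by name, as frequent hits of the screen outside the nuclear factor I family, joined by the paralog. The hit *Lrp1b* was not among the genes counted. All 4 passed the filter on low counts.

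RNA came from GFP-positive cells sorted out of 3 tumours per model, and the models are named HR1, LM1 and LM9. The first of them is the LB-mHR1 line, established from GFP-sorted cells of a mammary tumour of a transgenic mouse that expressed a mutant *PIK3CA* under the CAG promoter. The labels do not say whether these HR1 cells carried any vector of the screen. LM1 and LM9 are lines cultured from lung metastases in NOD/SCID mice that bore tumours of transposon-carrying HR1 cells, in which doxycycline had mobilised the transposon. All 3 lines therefore share the *PIK3CA* transgene, and each LM model is a single line. For the RNA, 250000 cells of a line in Matrigel were placed in the mammary fat pads of female NOD/SCID mice (NOD.CB17-Prkcd<scid>/J) aged 4 to 8 weeks, and tumours were removed before a volume of 1500 mm3. The labels number the tumours of a model but do not say whether each came from a separate animal or cell culture, so the p-values measure the spread between these tumours.

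FOXP1 and FOXP4 belong to the FOXP subfamily of forkhead transcription factors, which act mainly as repressors and bind DNA as homodimers or heterodimers with one another through a leucine zipper. They recruit the NuRD complex through p66 beta, the product of *Gatad2b*, and FOXP1 also binds the corepressor CTBP1. LRCH3 carries leucine-rich repeats and a calponin homology domain, and it binds the motor protein myosin VI and is linked to the septins, which assemble into filaments beside actin. SOX6 is a SoxD transcription factor that, with SOX5, assists SOX9 at the genes of cartilage matrix.

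The transposon inserts at the tetranucleotide TTAA. The sites inside these genes in the insertion table of the screen, of which a shortened copy was read, are shown because such events made the genes hits, each as its 8 bases on the strand of the insertion, with the TTAA in capitals (build mm10).
Foxp1 site in chr6:99039228-99039235, minus strand: TTAAgatt
Foxp1 site in chr6:99070462-99070469, minus strand: TTAAagga
Foxp1 site in chr6:99121461-99121468, minus strand: TTAAggct
Foxp1 site in chr6:99189400-99189407, minus strand: TTAAtcag
Foxp1 site in chr6:99220429-99220436, minus strand: TTAAagtc
Foxp1 site in chr6:99520093-99520100, minus strand: TTAAtgaa
Lrch3 site in chr16:32937570-32937577, plus strand: TTAAagaa
Sox6 site in chr7:115809154-115809161, minus strand: TTAAgtag
All 8 sites lay in introns of the GENCODE annotation, and all 8 read on the strand of the gene. The *Lrch3* site was 23.5 kb and the *Sox6* site 230 kb downstream of the annotated gene start. Of the 6 *Foxp1* sites, 1 lay 2.63 kb downstream of the gene start and 0.497 kb from the nearest exon, while the other 5 lay between 302 kb and 483 kb downstream. Whether any of these insertions was present in the lines that formed the sequenced tumours was not tested here.

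*Foxp1* spans chr6:98925338-99522721 on the minus strand of GRCm38, *Foxp4* spans chr17:47867133-47924645 on the minus strand, *Lrch3* spans chr16:32914100-33015647 on the plus strand, and *Sox6* spans chr7:115470872-116038796 on the minus strand. The RefSeq promoter table of GRCm38.p6 held windows for each of them, 3 for *Foxp1*, 1 for *Foxp4*, 1 for *Lrch3* and 6 for *Sox6*. The windows of *Foxp1* and *Lrch3*, the genes whose counts differed between models, are printed as the longest stretch of the 250 bases before each start that no annotated exon covers, with TTAA in capitals.
Foxp1 window 1, chr6:99521163-99521243, minus strand: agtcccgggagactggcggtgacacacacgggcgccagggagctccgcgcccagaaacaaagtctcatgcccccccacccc
Foxp1 window 2, chr6:99266533-99266765, minus strand: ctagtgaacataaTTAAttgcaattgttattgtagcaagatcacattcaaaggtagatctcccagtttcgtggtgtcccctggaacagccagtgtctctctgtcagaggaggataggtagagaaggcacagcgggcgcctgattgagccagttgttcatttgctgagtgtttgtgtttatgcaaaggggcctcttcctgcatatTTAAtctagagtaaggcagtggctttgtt
Foxp1 window 3, chr6:99028314-99028548, minus strand: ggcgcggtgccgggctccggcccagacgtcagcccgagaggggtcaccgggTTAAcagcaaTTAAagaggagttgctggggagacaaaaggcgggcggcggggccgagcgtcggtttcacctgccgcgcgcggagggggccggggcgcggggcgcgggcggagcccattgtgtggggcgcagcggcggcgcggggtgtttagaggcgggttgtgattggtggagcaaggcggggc
Lrch3 window 1, chr16:32913850-32914099, plus strand: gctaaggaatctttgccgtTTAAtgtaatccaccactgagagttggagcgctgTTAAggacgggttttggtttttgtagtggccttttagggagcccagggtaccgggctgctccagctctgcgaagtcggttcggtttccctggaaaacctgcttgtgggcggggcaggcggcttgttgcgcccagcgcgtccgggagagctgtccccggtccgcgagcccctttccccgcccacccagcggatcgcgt
The 5 *Foxp1* sites farthest from the gene start lay between the windows 2 and 3, and the site nearest to it lay between windows 1 and 2. A TTAA was present in 49.0% of the 32851 promoter windows of that length. Neither the forkhead core TGTTTAC (in 3.17% of all windows, either strand) nor the nuclear factor I core TTGGCA (in 12.3%, either strand) occurred in the full windows of *Foxp1*, *Foxp4* or *Lrch3*, and of the 6 *Sox6* windows 1 held the nuclear factor I core. Such matches describe letters only, and the motifs do not overlap one another.

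Total counts lay between 32393958 and 46681945 per tumour. The library labelled HR1 replicate 1 stood apart from the rest of its model. Over log2 CPM, where CPM are counts per 1000000 of the TMM-scaled library size, of all tested genes its Pearson correlation with the other HR1 tumours was 0.878 and 0.891, against 0.961 between those and at least 0.986 within LM1 and LM9. *Nfib*, the main hit of the screen, was at 1343 CPM in it, against 23.9 and 18.3 CPM in the other HR1 tumours and 421 to 791 CPM in the LM tumours. Other genes placed it on either side. It had no count of *Sox5*, against 30 to 129 counts in the LM tumours, and was at 11.6 CPM of *Col11a1*, against at most 0.068 CPM there. For *Lrch1*, at 27.3 CPM, and *Foxs1*, at 6.98 CPM, it was nearer to LM1, at 23.2 to 33.1 and 3.91 to 4.53 CPM, than to the other HR1 tumours, at 8.22 and 11.8 CPM and at 50.1 and 112 CPM. The 4 genes, and the counts over gene lists and neighbours, are therefore given with and without it. The related hit *Nfia* was at 0.232 to 2.60 CPM in HR1 and LM1 and at 17.8 to 25.2 CPM in LM9.

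Genes listed as markers of other cells moved between the models as well. The summed level of 13 leukocyte markers was 250 to 1097 CPM in HR1, 213 to 236 CPM in LM1 and 210 to 260 CPM in LM9, with 10 of 13 lower in the LM tumours together, where 23.6% of all tested genes were lower. These sums hide differences between the LM models, as *Cd68* was at 17.1 CPM in LM1 and 127 CPM in LM9 while *C1qa* was at 37.4 and 10.6 CPM. Of 10 fibroblast markers 9 were lower, with sums of 23483 to 36946 CPM in HR1 and 9023 to 13831 CPM in the LM tumours. Of 9 endothelial markers counted 6 were lower and 2, *Cdh5* and *Kdr*, were higher, and the sums were 11.6 to 39.9 CPM in HR1, 167 to 230 CPM in LM1 and 261 to 298 CPM in LM9. Epithelial identity was weak in the counts, as 7 of the 16 epithelial markers were not among them. The 9 others summed to 15.6 to 134 CPM in HR1, 160 to 184 CPM in LM1 and 15.6 to 19.6 CPM in LM9. *Krt14* had the highest mean of them in each model, with 47.3 ± 55.4 CPM in HR1, 167 ± 13.2 CPM in LM1 and 13.9 ± 1.58 CPM in LM9 (SD). Of these 9, *Elf3* was higher (2.36) and 3 were lower in the LM models together, namely *Trp63* (-3.48), *Epcam* (-2.66) and *Krt5* (-5.23). With HR1 replicate 1 left out the same number of leukocyte, endothelial and epithelial markers was lower, and 8 of the fibroblast markers, where 28.5% of all genes were lower. Of all genes 19.9% were higher with all tumours and 27.5% without that library. Whether these transcripts came from other cells or from the GFP-positive tumour cells was not tested, nor was the part of other cells in the results below. In sorted bulk RNA fewer cells of a type and less RNA per cell cannot be told apart.

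*Foxp1* transcripts were several-fold more abundant in both LM models than in HR1. The level was 34.2, 48.2 and 53.7 CPM in the HR1 tumours, 205, 238 and 147 CPM in the LM1 tumours, and 168, 146 and 124 CPM in the LM9 tumours. Every LM tumour was above every HR1 tumour, and the lowest LM value, 124 CPM in LM9 replicate 3, was still well above the highest HR1 value. The means were 45.4 ± 10.05 CPM in HR1, 196 ± 45.9 CPM in LM1 and 146 ± 22.1 CPM in LM9 (SD, n = 3 each). These values rest on at least 1030 counts per tumour. By the quasi-likelihood test of edgeR, with p-values adjusted over 14086 genes by Benjamini and Hochberg, the log2 fold change was 1.90 ± 0.22 (SE) for LM1 and LM9 together versus HR1 (adjusted p = 3.4e-04). It was 2.11 ± 0.24 for LM1 (adjusted p = 4.4e-04) and 1.68 ± 0.23 for LM9 (adjusted p = 9.6e-04). The exact two-sided permutation test of CPM gave 0.0238 for 6 against 3 tumours, the smallest p-value that this design allows.

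**Figure D1:**
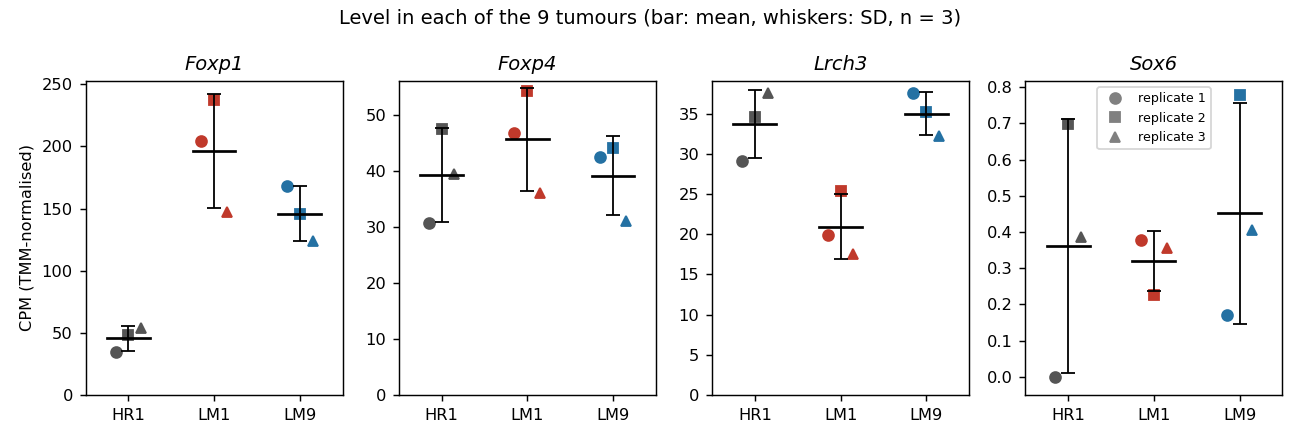
Level of *Foxp1*, *Foxp4*, *Lrch3* and *Sox6* in each of the 9 tumours (y axis, TMM-normalised CPM, a separate scale for each gene), with the mean as a bar and the SD as whiskers for HR1, LM1 and LM9 (n = 3 each). The LM tumours lie between 124 and 238 CPM for *Foxp1*, above the HR1 tumours at 34.2 to 53.7 CPM, *Lrch3* is lowest in LM1, and the models overlap for *Foxp4* and *Sox6*.

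Between the LM models *Foxp1* was at overlapping levels, through LM9 replicate 1 at 168 CPM, which was above the lowest LM1 value of 147 CPM. The other 2 of the 3 LM9 tumours were below that value. The difference was -0.43 ± 0.23 on the log2 scale for LM9 versus LM1 (adjusted p = 0.204). It was -0.26 without LM1 replicate 2 and -0.60 without LM1 replicate 3, neither past the threshold. With only the 6 LM tumours in the fit it was -0.44 ± 0.17 (adjusted p = 0.0472). Without HR1 replicate 1 the increase over HR1 was 1.74 ± 0.20 for the LM models together, 1.95 ± 0.22 for LM1 and 1.52 ± 0.21 for LM9, all past the threshold of 0.05.

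*Foxp1* was 1 of 4 genes called in the comparison of the LM models together with HR1, where 43.6% of all tested genes were called, so a single call among 4 genes is no more than the table as a whole shows. It was also the only 1 of the 4 whose LM and HR1 tumours did not overlap, against 29.9% of all genes. Its fold change was larger than that of 93.6% of tested genes, and 493 genes had a smaller p-value. With HR1 replicate 1 left out, 2 of the 4 genes were called, *Foxp1* as higher and *Lrch3* as lower, against 56.0% of all genes.

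*Foxp4*, which can pair with *Foxp1* at the protein level, did not move with it. The level was 30.7, 47.4 and 39.5 CPM in HR1, 46.8, 54.2 and 36.0 CPM in LM1 and 42.5, 44.0 and 31.0 CPM in LM9. The models overlapped throughout, and the tumours of each model spread as widely as those of the others. The means were 39.2 ± 8.38, 45.7 ± 9.17 and 39.2 ± 7.12 CPM (SD, n = 3 each). The log2 fold change was 0.11 ± 0.19 for the LM models together (adjusted p = 0.677), 0.22 ± 0.22 for LM1 (adjusted p = 0.475) and -0.0018 ± 0.22 for LM9 (adjusted p = 0.996). With these errors a small difference in either direction cannot be told from none. The value for LM1 was 0.066 without LM1 replicate 2, 0.078 without HR1 replicate 1, 0.37 without LM1 replicate 3 and 0.38 without HR1 replicate 2. Without HR1 replicate 1, in which *Foxp4* was lowest, the value for the LM models together was -0.03 ± 0.18.

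Within a tumour the balance of these paralogs could be compared per kilobase of exon, with 13751 bases of exon union for *Foxp1* and 4926 for *Foxp4*. *Foxp1* was 0.4002, 0.365 and 0.487 times the level of *Foxp4* in the HR1 tumours. In the LM1 tumours it was 1.57, 1.57 and 1.46 times, and in the LM9 tumours 1.42, 1.19 and 1.43 times. Per kilobase the order of the paralogs was thus opposite in HR1 and in the LM tumours, in 9 of 9 tumours, and so also without HR1 replicate 1. Without the division by exon length *Foxp1* was above *Foxp4* in every HR1 tumour too, at 34.2, 48.2 and 53.7 CPM against 30.7, 47.4 and 39.5 CPM. The mean ratios per kilobase were 0.417 ± 0.063, 1.53 ± 0.060 and 1.34 ± 0.138 (SD, n = 3 each). The exact two-sided permutation test of these ratios gave 0.0238 for 6 against 3 tumours, again the smallest possible value. In each model the ratio varied less between tumours, relative to its mean, than either gene did. The SD of *Foxp1* and *Foxp4* was 22.1% and 21.4% of the mean in HR1, 23.4% and 20.1% in LM1, and 15.1% and 18.2% in LM9. No stretch of 50 bases, the read length, was shared between the annotated exons of *Foxp1* and those of *Foxp2*, *Foxp3* or *Foxp4*. The exon union counts every isoform alike, so shorter transcripts that start at an insertion are not told from full-length ones.

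**Figure D2:**
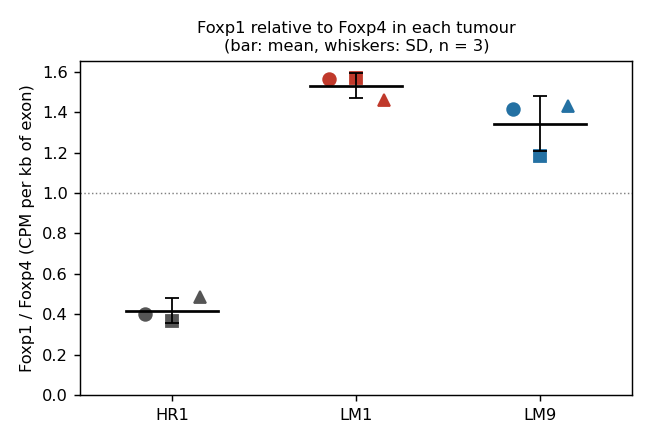
*Foxp1* relative to *Foxp4* in each of the 9 tumours (y axis, ratio of CPM per kilobase of exon union, with equality as a dotted line), with the mean as a bar and the SD as whiskers for each model (n = 3). The HR1 tumours lie between 0.365 and 0.487 and the LM tumours between 1.19 and 1.57.

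The rest of the forkhead family moved in either direction. Of 42 other forkhead factors 25 were counted, and 9 were higher and 5 lower in the LM tumours, with a median log2 fold change of 0.46 against -0.05 over all tested genes, of which 19.9% were higher and 23.6% lower. *Foxo3*, a factor active when PI3K signalling is low, was higher by 2.11 ± 0.22 (adjusted p = 2.3e-04), in the range of *Foxp1*. *Foxs1* fell from 6.98, 50.1 and 112 CPM in HR1 to 3.91 to 4.53 CPM in LM1 and 0.366 to 0.622 CPM in LM9. Of the 25, 13 were higher and 4 lower without HR1 replicate 1, against 27.5% and 28.5% of all genes. *Foxp2* and *Foxp3* were not among the genes counted.

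The genes for corepressors that work with FOXP1 moved in either direction. All 15 NuRD and CtBP genes were counted, and 1 was higher and 4 lower in the LM models together, with a median of -0.08, where 43.6% of all genes were called. In LM9 alone 4 were higher and 5 lower, where 42.3% of all genes were called, and in LM1 alone 2 were higher and 1 lower, against 35.5%. Without HR1 replicate 1 the counts of higher and lower genes were 2 and 4 for the LM models together, 3 and 7 for LM9, and 4 and 3 for LM1, where 56.0%, 55.7% and 52.8% of all genes were called. *Gatad2b* was at 9.53 ± 3.23 CPM in HR1, 12.8 ± 3.72 CPM in LM1 and 17.9 ± 3.61 CPM in LM9 (SD, n = 3 each), with a log2 fold change of 0.67 ± 0.28 for the LM models together (adjusted p = 0.081) and 0.91 ± 0.31 for LM9 alone (adjusted p = 0.0443). *Ctbp1* was lower by a small amount, with -0.31 ± 0.11 (adjusted p = 0.0464), and its paralog *Ctbp2* was the single increase in the LM models together, with 0.63 (adjusted p = 0.0064). *Mta3*, which encodes another NuRD subunit, fell from 72.8 ± 12.5 CPM to 42.7 ± 1.95 CPM in LM1 and 36.4 ± 1.99 CPM in LM9.

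*Lrch3* differed between the LM models rather than between both of them and HR1. The level was 29.2, 34.6 and 37.6 CPM in HR1, 19.9, 25.4 and 17.6 CPM in LM1 and 37.5, 35.2 and 32.3 CPM in LM9. All LM1 tumours were below all tumours of the other models, and HR1 and LM9 overlapped. The means were 33.8 ± 4.25, 20.9 ± 4.02 and 35.0 ± 2.64 CPM (SD, n = 3 each). Against HR1, LM1 had a log2 fold change of -0.69 ± 0.17 (adjusted p = 0.0157), and *Lrch3* and *Foxp1* were 2 of 4 genes called and 2 of 4 without overlap, against 35.5% and 45.6% of all genes. In LM9 versus LM1 it was 0.74 ± 0.17 (adjusted p = 0.0192), and *Lrch3* was the single gene of the 4 called and without overlap, against 22.0% and 63.0% of all genes. LM9 did not differ detectably from HR1, with 0.05 ± 0.17 (adjusted p = 0.831), and there *Foxp1* was the single gene of the 4 called and without overlap, against 42.3% and 53.3% of all genes. The exact permutation test of 3 against 3 tumours cannot give less than 0.1, which was the value for LM1 against each of the other models.

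The *Lrch3* calls depended on single tumours, although the fold changes moved less. Without HR1 replicate 1, LM1 versus HR1 gave -0.78 ± 0.17 (adjusted p = 0.0034) and LM9 versus LM1 gave 0.74 ± 0.15 (adjusted p = 0.0036), and the LM models together versus HR1, at -0.32 ± 0.15 with all tumours (adjusted p = 0.113), became -0.41 ± 0.15 (adjusted p = 0.0375). Of all genes 52.8% were then called for LM1 against HR1, with 2 of the 4 genes among them. The shares were 55.7% for LM9 against HR1 and 45.5% between the LM models, each with 1 of the 4. Leaving out LM1 replicate 2 also brought the LM models together past the threshold (-0.41, adjusted p = 0.0483). Leaving out LM1 replicate 1 or 3 took LM1 versus HR1 to -0.65 (adjusted p = 0.0643) and -0.58 (adjusted p = 0.0543). LM9 versus LM1 lost its call without LM1 replicate 1, LM1 replicate 3 or any 1 of the LM9 tumours, at 0.63 to 0.80 (adjusted p from 0.0504 to 0.0824). In those 5 fits 1150 to 1451 genes were called between the LM models, against 3102 with all tumours. A fit of only the tumours compared took LM1 versus HR1 to -0.70 (adjusted p = 0.0561). The direction was the same each time. *Iqcg*, which overlaps the 3′ end of *Lrch3* on the opposite strand, was at 0.103 to 0.665 CPM in all tumours, and the strand setting of the counting is not given in the sources used here.

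**Figure D3:**
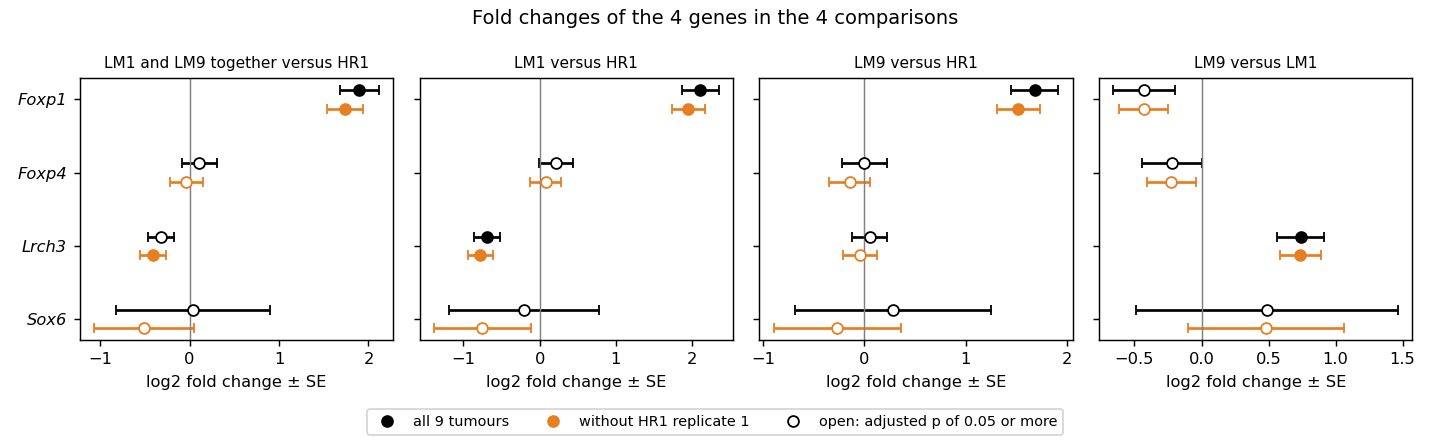
Log2 fold change with its SE (x axis) of *Foxp1*, *Foxp4*, *Lrch3* and *Sox6* in the 4 comparisons, with all 9 tumours in black and without HR1 replicate 1 in orange, filled where the adjusted p was under 0.05. *Foxp1* is at 1.90, 2.11 and 1.68 in the comparisons with HR1, and *Lrch3* is called for LM1 versus HR1 and LM9 versus LM1 in both fits.

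The paralogs of *Lrch3* moved in either direction. *Lrch2* rose in both LM models, from 17.1 ± 5.08 CPM in HR1 to 39.1 ± 5.22 CPM in LM1 and 46.5 ± 6.17 CPM in LM9, with a log2 fold change of 1.32 ± 0.21 for the LM models together (adjusted p = 0.0015). *Lrch1* was higher by 1.24 ± 0.35 (adjusted p = 0.0208) in the LM models together, with 8.22 to 27.3 CPM in HR1, 23.2 to 33.1 CPM in LM1 and 46.1 to 54.0 CPM in LM9. It was called for LM9 (1.67, adjusted p = 0.0103) and not for LM1 (0.81, adjusted p = 0.134), which overlapped HR1 through HR1 replicate 1 alone. Without that library LM1 had 1.47 (adjusted p = 3.1e-04). *Lrch4* was lower, with -0.54 ± 0.17 (adjusted p = 0.0328), and like *Lrch3* it had its lowest mean in LM1, at 23.0 CPM, although LM9, at 26.2 CPM, was also under the 35.7 CPM of HR1. All of these passed the threshold for the LM models together without HR1 replicate 1 too, with 1.52 for *Lrch2*, 1.90 for *Lrch1* and -0.72 for *Lrch4*, where 56.0% of all genes were called, against 43.6% with all tumours.

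*Myo6*, which encodes myosin VI, was at 38.7, 9.97 and 12.7 CPM in HR1, 7.95 to 11.1 CPM in LM1 and 19.0 to 19.9 CPM in LM9, with no comparison past the threshold. It was highest in HR1 replicate 1, and without that library LM9 exceeded LM1 by 1.00 (adjusted p = 0.0012) and HR1 by 0.79 (adjusted p = 0.0057). Of 13 septin genes 11 were counted, and 3 were higher and 4 lower, with a median of -0.25, where 19.9% of all genes were higher and 23.6% lower. The counts were 3 and 3 without HR1 replicate 1, against 27.5% and 28.5%. *Septin6* was higher by 1.41 ± 0.18 and *Septin5* lower, with -1.93 ± 0.26, so the septin genes did not move in a single direction.

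*Sox6* was close to the limit of detection in every tumour. It had 0, 31 and 15 counts in HR1, 18, 10 and 14 in LM1 and 8, 34 and 18 in LM9. In CPM this was 0, 0.698 and 0.386 in HR1, 0.378, 0.227 and 0.356 in LM1 and 0.172, 0.778 and 0.405 in LM9. The library with no count was HR1 replicate 1, where 3 counts would be 0.0997 CPM, and the other tumours of the 3 models overlapped. The mean over all tumours, 0.378 CPM, was above that of only 5.57% of tested genes. No comparison passed the threshold, with a log2 fold change of 0.04 ± 0.86 for the LM models together (adjusted p = 0.978), -0.21 ± 0.98 for LM1 and 0.28 ± 0.97 for LM9. The SE of nearly 1 log2 unit means that a 2-fold difference in either direction was not detectable in these tumours, and the sign of each value turned when single tumours were left out. Without HR1 replicate 1 the value for the LM models together was -0.51 ± 0.56 (adjusted p = 0.456).

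Some other SOX genes were well above this limit in both LM models. *Sox18*, at a mean of 3.70 CPM, and *Sox21*, at 8.79 to 11.1 CPM, were so in LM1 but not in LM9, with means of 0.103 and 0.432 CPM. *Sox5*, the other SoxD gene counted, had 0, 1 and 2 counts in HR1, 48, 30 and 32 in LM1 and 129, 122 and 122 in LM9, so that it was at least 22.1-fold higher in the LM models together than 3 counts per HR1 tumour would be. *Sox9* was at 6.84 to 17.4 CPM in HR1, 103 to 253 CPM in LM1 and 206 to 395 CPM in LM9, with a log2 fold change of 4.33 ± 0.46 (adjusted p = 2.5e-04). Of 18 other SOX factors 8 were counted, and 3 were higher and 1 lower, against 19.9% and 23.6% of all genes, with a median of 1.53, which was the same with *Sox5* at its lower bound. These became 4 and 1 without HR1 replicate 1, against 27.5% and 28.5%. *Sox13* was not among the genes counted. Of 11 cartilage matrix genes 7 were counted, with *Col2a1* and *Col11a1* lower and *Acan*, *Col9a3* and *Matn3* higher, so 3 and 2 of the 7 against the same shares. The counts were also 3 and 2 without HR1 replicate 1, against 27.5% and 28.5% of all genes, but with *Comp* (-1.91, adjusted p = 0.0183) called in place of *Col2a1*. *Col11a1* fell from a mean of 21.7 CPM in HR1 to 0.0437 CPM in LM1 and 0.0223 CPM in LM9. *Col2a1* was at 86.3 CPM in HR1 replicate 1 alone and at 0.045 to 0.279 CPM in the other 8 tumours, and without that library its log2 fold change turned from -7.67 to 0.36 (adjusted p = 0.723). *Acan*, with 3 counts or fewer in each HR1 tumour, had 159 to 286 counts in LM1, and 72, 6 and 0 in LM9.

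**Figure D4:**
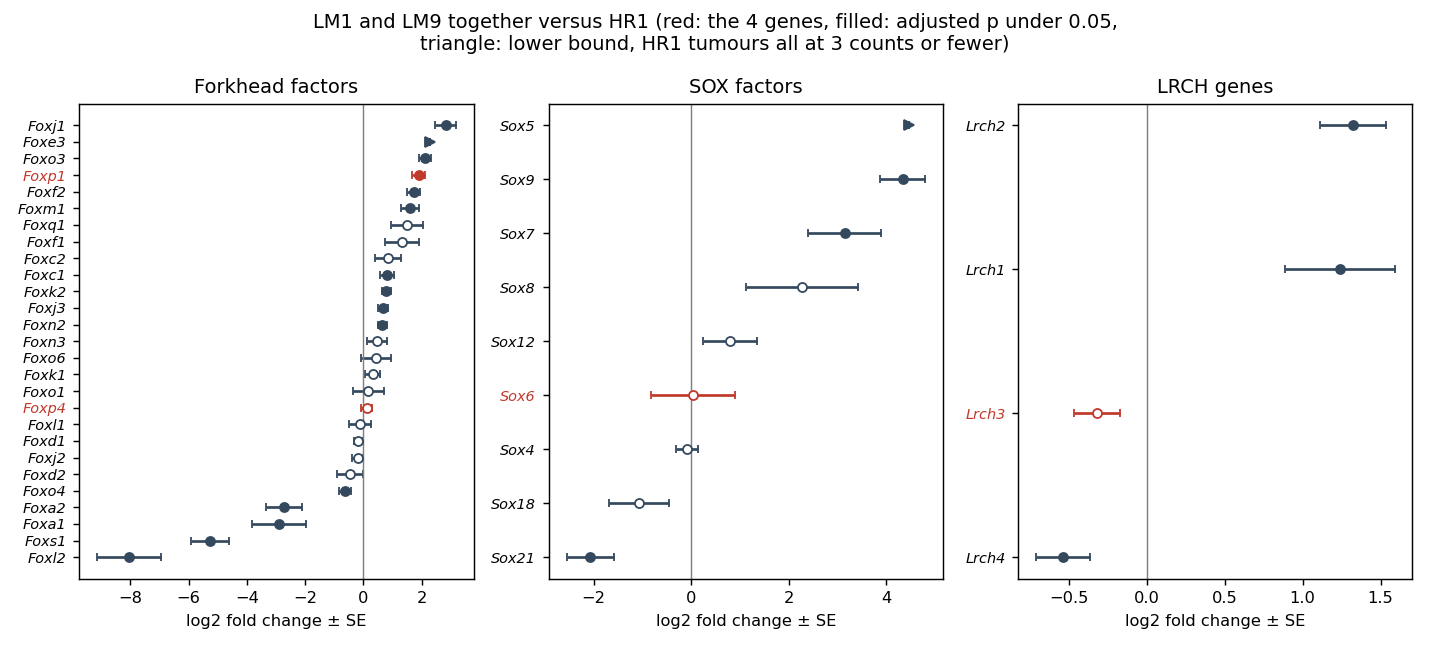
Log2 fold change with its SE (x axis) in the LM models together versus HR1, for the forkhead factors, the SOX factors and the LRCH genes counted (one gene per line), with *Foxp1*, *Foxp4*, *Sox6* and *Lrch3* in red and filled points for an adjusted p under 0.05. *Foxp1* at 1.90 lies near *Foxo3* at 2.11, *Sox6* at 0.04 has an SE of 0.86, and *Sox5* and *Foxe3* are drawn at lower bounds of 4.47 and 2.28 since all HR1 tumours had 3 counts or fewer.

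Per kilobase of exon the 4 genes stood in different orders in HR1 and in the LM models. In HR1 *Foxp4* was first at 7.96 ± 1.70 CPM per kb, followed by *Lrch3* at 5.11 ± 0.64, *Foxp1* at 3.30 ± 0.73 and *Sox6* at 0.024 ± 0.024 (SD, n = 3 each). None of these neighbours in the order overlapped. In LM1 *Foxp1* came first at 14.3 ± 3.34 CPM per kb, overlapping *Foxp4* at 9.27 ± 1.86, and *Lrch3* followed at 3.17 ± 0.61. In LM9 the order was the same, with 10.6 ± 1.61, 7.95 ± 1.45 and 5.30 ± 0.40 CPM per kb, and the lowest *Foxp1* tumour, at 9.01, was barely above the highest *Foxp4* tumour, at 8.94. *Sox6* was last in each model.

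The neighbourhood of each gene was examined because an insertion could act beyond the gene it lies in. Of the tested genes within 1 Mb of *Foxp1* there were 3, of which 1 was higher and 2 lower in the LM models together, with and without HR1 replicate 1, and none was higher in both LM models as *Foxp1* was. *Mitf*, at -904 kb along the chromosome, was higher in the LM models together (0.93, adjusted p = 0.0095), with 1.66 in LM9 and 0.21 in LM1, whereas *Eif4e3* at 99.1 kb (-1.10, adjusted p = 0.0276) and *Rybp* at 706 kb (-0.88, adjusted p = 0.0339) were lower. With all tumours each of these was called in 1 LM model only, as *Eif4e3* had an adjusted p of 0.105 in LM1 and *Rybp* 0.19 in LM9. All neighbourhoods are read against 19.9% of all genes higher and 23.6% lower, or 27.5% and 28.5% without HR1 replicate 1. Around *Foxp4* 0 of 25 genes were higher and 5 lower, with a median of -0.22, and without that library 2 were higher and 12 lower. The nearest, *Mdfi* at -32.4 kb (1.19) and *9830107B12Rik* at 175 kb (0.68), did not pass the test, although *Mdfi* did without HR1 replicate 1 (1.45, adjusted p = 0.0331). Around *Lrch3* 4 of 31 were higher and 12 lower, with a median of -0.40, and without HR1 replicate 1 the counts were 4 and 18. The gene next to its 5′ end, *Fyttd1* at -5.12 kb, had -0.40 for the LM models together (adjusted p = 0.0096) and -0.67 for LM1 (adjusted p = 0.0025), close to the -0.69 of *Lrch3* in LM1. On the other side *Iqcg*, which overlaps *Lrch3*, had -0.76 at its low counts (adjusted p = 0.274). The nearest gene tested there without overlap was *Rpl35a* at 40.4 kb (-0.63, adjusted p = 0.0974), a ribosomal protein gene whose reads may be shared with processed copies. Around *Sox6* 1 of 8 was higher, namely *Insc* at -620 kb (1.65, adjusted p = 9.6e-04), and 2 were lower, while *1110004F10Rik*, the nearest on the other side at 40.6 kb, had 0.12 (adjusted p = 0.461). Of the 8, 3 were higher and 1 lower without HR1 replicate 1.

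**Figure D5:**
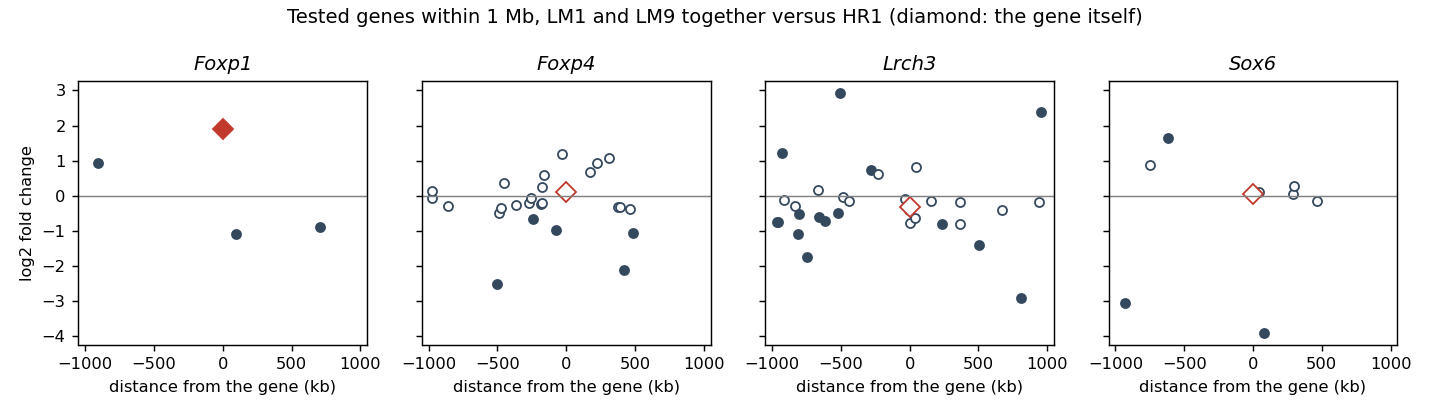
Log2 fold change for LM1 and LM9 together versus HR1 (y axis) of the tested genes within 1 Mb of *Foxp1*, *Foxp4*, *Lrch3* and *Sox6*, by their distance from the gene in kb (x axis), with the gene itself as a red diamond and filled symbols for an adjusted p under 0.05. *Foxp1* at 1.90 is above its 3 neighbours, which are at 0.93, -1.10 and -0.88.

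The genes whose level followed each of the 4 most closely over the 9 tumours were sought among the 10532 genes that reached 5 CPM on average, by Pearson's r of log2 CPM. These values describe 9 tumours that fall into 3 models and share their libraries, so they carry no test. *Clspn*, which encodes the replication checkpoint adaptor claspin, followed *Foxp1* at r = 0.994, with means of 6.29, 24.1 and 19.7 CPM in HR1, LM1 and LM9. *Nsd2*, for a histone H3 methyltransferase, followed at 0.991 and *B4galt5*, for a galactosyltransferase, at 0.988. For *Foxp4* these were *Furin* (0.968), *Zcchc14* (0.923) and *Actn1* (0.904). For *Lrch3* they were *Mtmr3* (0.986), *Lzts3* (0.980) and the forkhead gene *Foxj2* (0.980), each with its lowest mean in LM1. The values for *Sox6*, up to 0.966 for *Usp14*, rest on very few counts and are not read further.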

How the data were processed

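Sorted GFP-positive cells of 9 tumours were sequenced by the authors (stranded TruSeq mRNA libraries, 50-nt single-end reads). They aligned reads to mm10 with STAR and deposited raw counts of 5′ read ends over the exon union of each gene, from qCount of QuasR. Versions and the strand setting are not given in the sources used here. Totals were 32393958 to 46681945 counts per tumour. Counting error is small for *Foxp1*, *Foxp4* and *Lrch3*. *Sox6* had 0 to 34 counts per tumour, and counting error and spread between tumours were not separated in its SE. That SE fell from 0.86 to 0.56 for the LM models together when HR1 replicate 1 was left out. Reads carried no molecular identifiers, so the limit of 3 counts covers counting error only.

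Groups came from the sample labels. Of 14108 Entrez genes 14085 were matched to a symbol in the RefSeq table of GRCm38.p6, whose positions also gave the distances to neighbours. The spans of the 4 genes, exon lengths and overlapping genes came from GENCODE vM21. edgeR 4.0.16 in R 4.3.3 was used with TMM factors (0.928 to 1.05), its filter by expression (14086 genes kept) and the robust quasi-likelihood F-test in 1 model over the 3 groups, without covariates. Each LM model, and the mean of both, was set against HR1, and the LM models against each other. Adjustment after Benjamini and Hochberg covered all tested genes, and the threshold was 0.05. SE is the log2 fold change divided by the square root of F. CPM of the 4 genes also went into exact permutation tests (two-sided). No pair of tumours of a model agreed within sampling noise, as repeat sequencing of the same library would, and each was treated as a replicate. This check cannot tell separate animals from separately prepared portions of the same tumour.

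The 4 genes and the gene lists were chosen with earlier results of these data known. The named genes were the 4 genes, their close paralogs and partners, the other screen hits, up to 4 genes of each list with the largest called change in the LM models together, the nearest tested genes, and the 3 genes most alike in pattern. *C1qa*, *Cd68*, *Comp*, *Foxo3*, *Krt14*, *Matn3*, *Rybp* and *Sox18* were named after their values were seen. Transposon sites came from a shortened copy of the insertion table of the study, of which only sequences and positions were used. Where sites of that table fell in promoter windows, 4 of 4 matched at all 8 bases. Guide sequences and proteins are not shown, and 1 list of partner genes is not reported here.

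The tests were checked on simulated counts of 14086 genes with 200 changed, for LM1 and LM9 together versus HR1. There edgeR recovered 66.5% of the changed genes, limma-voom 64.5% and DESeq2 74.5%. Of their calls 7.64%, 5.84% and 26.2% were false at the threshold of 0.05. The simulation held far fewer changed genes than the 43.6% called in the data. Alternatives were RLE factors, library size only, no filter, a floor of 1 CPM in 3 tumours or more, limma-voom (limma 3.58.1, the test of the authors), DESeq2 1.42.0, no robust estimation, the replicate number as a block, only the tumours compared or LM1 and LM9 as 1 group, and each tumour left out. The values of neighbours and of single list genes without HR1 replicate 1 were added after the data were seen. Tables were handled in Python 3.11.15 with pandas 2.3.3 and scipy 1.17.1.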

Additional observations from a re-analysis of the deposited data

Results flagged for a closer look

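The change of *Lrch3* from HR1 differed between the LM models, with a log2 fold change of 0.74 for LM9 versus LM1 in edgeR (adjusted p = 0.0192). It was lower than HR1 in 3 of 3 LM1 tumours, whereas the LM9 tumours overlapped HR1.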

How the results depend on the processing

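Over the 16 values of the 4 genes, 135 of 140 fits with another setting and 122 of 144 fits without a tumour kept the direction and the side of the threshold. *Foxp1* kept both in every comparison with HR1 (1.52 to 2.28 without a tumour). Of the other settings, fitting only the tumours compared took *Lrch3* in LM1 versus HR1 to -0.70 (adjusted p = 0.0561) and *Foxp1* in LM9 versus LM1 to -0.44 (adjusted p = 0.0472), and it called 3008 genes in LM1 versus HR1 and 7709 in LM9 versus LM1, against 4994 and 3102. *Sox6* in LM1 versus HR1 turned to 0.78 under limma-voom, and *Foxp4* in LM9 versus HR1 to 5.7e-04 with library size only. Under limma-voom *Sox6* was also at 0.91 for the LM models together and 1.05 for LM9, against 0.04 and 0.28 in edgeR, none past the threshold. Leaving out each tumour gave, for the LM models together versus HR1, -0.0347 to 0.27 for *Foxp4*, -0.41 to -0.24 for *Lrch3* and -0.51 to 0.90 for *Sox6*. For LM1 versus HR1 it gave 0.066 to 0.38 for *Foxp4*, -0.86 to -0.58 for *Lrch3* and -0.75 to 0.66 for *Sox6*, for LM9 versus HR1 -0.15 to 0.16 for *Foxp4*, -0.0399 to 0.14 for *Lrch3* and -0.38 to 1.15 for *Sox6*, and for LM9 versus LM1 -0.60 to -0.26 for *Foxp1*, 0.63 to 0.91 for *Lrch3* and -0.18 to 0.88 for *Sox6*. Genes called then ranged from 3121 to 7453 in LM1 versus HR1, 3768 to 7862 in LM9 versus HR1 and 1150 to 6413 in LM9 versus LM1. The causes of these shifts were not tested. By CPM rather than CPM per kb, *Foxp1* came first in HR1 too.

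Tumours of the same replicate number did not deviate together (Pearson's r of -0.117 to 0.162 over genes), and not every tumour correlated best with its own number. With the replicate number as a block, edgeR called 5234, 4204, 5078 and 2295 genes in the 4 comparisons, against 6138, 4994, 5958 and 3102, and *Sox6* in LM1 versus HR1 turned to 0.40. No other direction or call of the 4 genes changed under the block.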
